A study of Mus musculus with 6 samples.

Results

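The centromere-proximal ends of the mouse autosomes were taken as the 10 kb windows from 3000001 to 6000000 of chromosomes 1 to 19 in the mm9 assembly. The first 3 Mb of each mm9 chromosome hold no assembled sequence, so these windows are the first sequenced 3 Mb beside the centromere. The rule left out 4 windows at chr9:3000001-3040000 and 2 windows at chr12:3100001-3120000 and used positions only, no read counts. The rule gave 5694 windows of 257908 windows of 10 kb in all. They were compared with 5700 windows of the same chromosomes from 20000001 to 23000000, called the interior here.

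All libraries came from C57Bl/6 mouse embryonic stem cells kept in LIF without feeder cells. The H2A.B group was 1 chromatin immunoprecipitation (ChIP) library made with a rabbit antibody to mouse H2A.B, set against 1 ChIP library made with rabbit IgG. The 5mC group was 3 libraries of methylated DNA immunoprecipitation (MeDIP), in which sonicated genomic DNA is captured with an antibody to 5-methylcytosine, set against 1 MeDIP library made with mouse IgG. The free-text description of both IgG libraries names the H2A.B antibody, whereas their antibody field gives IgG, and they were grouped by the antibody field. H2A.B ChIP, IgG ChIP and IgG MeDIP have no replicates. Whether the 3 5mC libraries are from different cultures is not given in the labels, so any p-value reflects their mutual spread, possibly technical.

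Mouse autosomes are telocentric: the centromere sits at one end, with minor satellite repeats at the kinetochore and large blocks of major satellite beside it. Those satellite blocks form pericentromeric heterochromatin, are rich in 5-methylcytosine and are mostly missing from the assembly. The windows described here begin where assembled sequence begins. H2A.B is a short histone H2A variant that lacks the C-terminal part of canonical H2A and gives a nucleosome that wraps less DNA and is less stable. MeDIP signal depends on how many methylated CpG sites a fragment holds as well as on how often they are methylated.

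Reads were counted once per position and strand (distinct reads) and given as CPM, counts scaled to the library's total of distinct reads. The ends held 33.7 distinct reads per window in H2A.B ChIP, against 2.11 in IgG ChIP. They held 5.68, 7.39 and 3.27 distinct reads per window in the 3 5mC libraries, against 0.411 in IgG MeDIP. At that depth 70.8% of the usable end windows held no IgG MeDIP read, and single windows of 10 kb could not be compared with it. Windows with a mean CPM of the 6 libraries under 25% or over 10 times the autosomal median were set aside, which kept 5620 of 5694 windows (98.7%) in the ends and 5384 of 5700 windows (94.5%) in the interior. Of the interior windows without any read, 203 of 235 were on chromosome 8, where 92 interior windows were left. Each library was read in 1 sequencing lane. H2A.B ChIP and 5mC replicate 1 shared lane 3 of one flow cell, and the other 4 libraries were read on another flow cell, with 5mC replicate 2 and IgG MeDIP in its lane 1 and 5mC replicate 3 and IgG ChIP in its lane 2.

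The ends carried slightly more reads than the interior in every one of the 6 libraries. H2A.B ChIP averaged 4.18 CPM per window in the ends and 3.73 CPM in the interior, a ratio of 1.12 (exact 95% interval 1.11 to 1.13; intervals here cover counting error only). IgG ChIP averaged 3.92 CPM in the ends and 3.75 CPM in the interior, a ratio of 1.04 (1.02 to 1.07). The control antibody library was thus also higher in the ends, by less than the H2A.B library.

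In the MeDIP libraries the ends averaged 4.07, 3.91 and 4.07 CPM in 5mC replicates 1, 2 and 3, against 3.38, 3.52 and 3.82 CPM in the interior. The end to interior ratios were 1.20, 1.11 and 1.06 in the 3 5mC libraries, a mean of 1.13 ± 0.0703 (SD, n = 3). IgG MeDIP averaged 3.31 CPM in the ends and 3.07 CPM in the interior, a ratio of 1.08 (1.02 to 1.14). The IgG value thus lay between 5mC replicates 2 and 3. Set against the last 3 Mb of each autosome instead of the interior, the ends were lower, with a mean 5mC ratio of 0.882 ± 0.0385 (SD, n = 3) and an IgG MeDIP ratio of 0.822.

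Relative to IgG MeDIP, the end to interior ratio on the log2 scale was 0.16 in 5mC replicate 1, 0.04 in replicate 2 and -0.02 in replicate 3. The mean difference of 0.06 ± 0.09 (SD, n = 3) was smaller than the spread between replicates, and an exact two-sided permutation test over the 4 libraries gave p = 0.75. As a median over the 19 chromosomes, chosen after seeing the data, the difference turned to -0.10. With 3 libraries against 1 this test cannot give a p under 0.25. It therefore cannot decide whether 5mC exceeded IgG more in the ends than in the interior. 5mC over IgG MeDIP itself was 1.21 ± 0.0277 in the ends and 1.16 ± 0.0734 in the interior (SD, n = 3).

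H2A.B over IgG ChIP was 1.07 (1.05 to 1.09) in the ends and 0.993 (0.974 to 1.01) in the interior, so that the ends stood 1.08-fold (1.05 to 1.10) above the interior. With 1 library a side there is no replicate check of this difference, and against the last 3 Mb of each autosome it was 1.02 (0.995 to 1.05). The end stood above the interior in this ratio on 13 of 19 chromosomes. Without chromosomes 16, 17 and 19, left out after seeing the data, H2A.B over IgG ChIP was 1.00 (0.980 to 1.02) in the ends. The interior without them had 0.985 (0.964 to 1.01). These chromosomes had the highest ratios in the ends, so leaving them out had to lower the value of the ends. Leaving out chromosome 9 instead, also after seeing the data, raised the difference from 1.08-fold to 1.12-fold. The difference thus depended on which chromosomes were kept. The 2 ChIP libraries were read on different flow cells, so antibody and flow cell cannot be told apart. The same pair of lanes without H2A.B, 5mC replicate 1 over 5mC replicate 3, gave 1.13 for the ends against the interior. H2A.B over 5mC replicate 1, which shared a lane, gave 0.934.

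**Figure D1:**
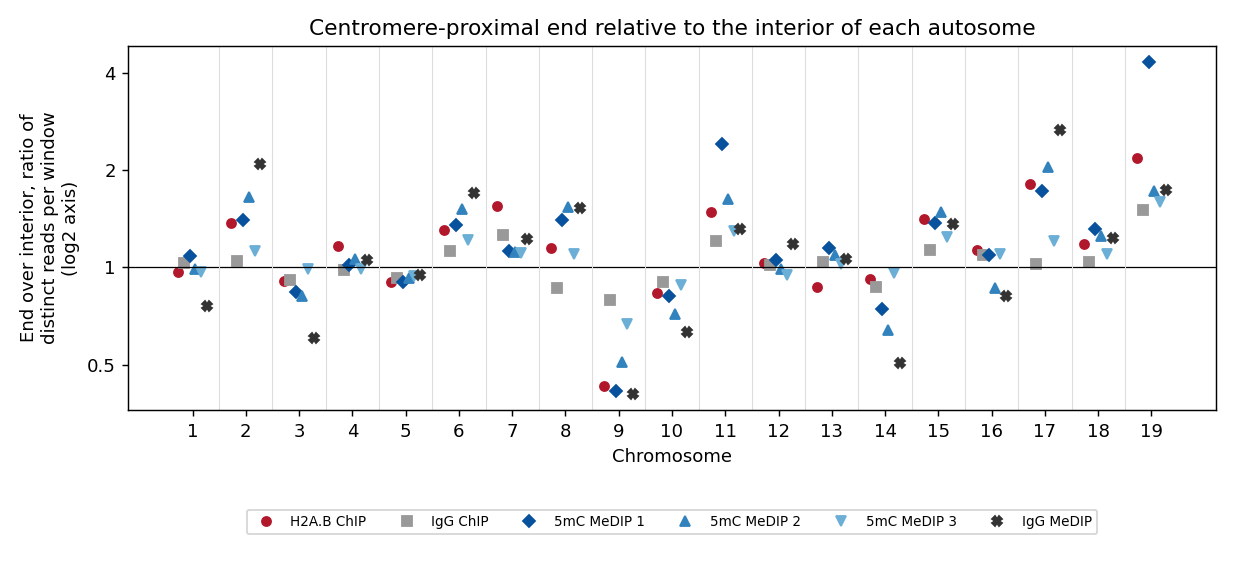
Ratio of distinct reads per 10 kb window in the end over the interior of each autosome (log2 axis), with 1 point per library. The 6 libraries lie together on most chromosomes, all above 1 on chromosomes 2, 6, 7, 11, 15, 17, 18 and 19 and all below 1 on chromosomes 3, 5, 9, 10 and 14.

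The ends were not alike between chromosomes, and the differences between chromosomes were much larger than the mean difference from the interior. H2A.B ChIP was higher in the end than in the interior on 12 of 19 chromosomes, and IgG ChIP on 12. The 3 5mC libraries were higher in the end on 14, 11 and 11 chromosomes, and IgG MeDIP on 12. All 6 libraries were higher in the end on 8 chromosomes and all 6 were lower on 5. Antibody and control thus moved together along the set of chromosomes, as the plot of end over interior by chromosome shows.

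Chromosome 19 had the highest end to interior ratio in H2A.B ChIP, in IgG ChIP and in the mean of the 5mC libraries. H2A.B ChIP was 2.18-fold higher in the end of chromosome 19 than in its interior, and IgG ChIP was 1.51-fold higher. 5mC was 4.30, 1.73 and 1.59-fold higher in the 3 replicates, a mean of 2.54 ± 1.53 (SD, n = 3), against 1.73-fold in IgG MeDIP. 5mC replicate 1 stood well above the other 2 here, and replicates 2 and 3 did not exceed IgG MeDIP. The end of chromosome 19 held 6.75 CPM per window in H2A.B ChIP and 4.79 CPM in IgG ChIP, and it ranked first among the 20 segments of 3 Mb of the chromosome in both.

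On chromosome 17 the end to interior ratio was 1.81 in H2A.B ChIP and 1.02 in IgG ChIP, so that the rise was seen with the H2A.B antibody and hardly with its control. In MeDIP the order of antibody and control was the opposite: the ratio was 1.73, 2.05 and 1.21 in the 5mC replicates, a mean of 1.66 ± 0.422 (SD, n = 3), against 2.66 in IgG MeDIP. Chromosome 11 had a mean 5mC ratio of 1.78 ± 0.575 (SD, n = 3), against 1.32 in IgG MeDIP, with IgG ChIP at 1.21. Chromosome 7 ranked 3 in H2A.B ChIP with 1.55, against 1.26 in IgG ChIP. Chromosome 2 was second in IgG MeDIP with 2.09, where the 5mC mean was 1.39 ± 0.264 (SD, n = 3).

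Chromosome 9 lay at the other extreme in all 6 libraries. Its end to interior ratio was 0.430 in H2A.B ChIP, against 0.793 in IgG ChIP. It was 0.415, 0.510 and 0.669 in the 5mC replicates, a mean of 0.531 ± 0.129 (SD, n = 3), against 0.407 in IgG MeDIP. H2A.B ChIP averaged 2.66 CPM in the end and 6.18 CPM in the interior of chromosome 9, where the means over all chromosomes were 4.18 CPM in the ends and 3.73 CPM in the interior. The end was thus low and the interior high. The next lowest were chromosomes 10 and 13 in H2A.B ChIP (0.831 and 0.869), chromosomes 14 and 10 in 5mC (0.781 ± 0.161 and 0.805 ± 0.0833, SD, n = 3), chromosomes 8 and 14 in IgG ChIP (0.862 and 0.868), and chromosomes 14 and 3 in IgG MeDIP (0.506 and 0.604).

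5mC exceeded IgG MeDIP in end over interior in all 3 replicates on 6 chromosomes (1, 3, 9, 10, 14 and 16) and fell short of it in all 3 on 6 others (2, 5, 6, 7, 12 and 17). No direction prevailed. Over the chromosomes the log2 ratio had an SD of 0.690, 0.536 and 0.258 in the 5mC replicates, against 0.705 in IgG MeDIP. H2A.B ChIP had an SD of 0.505, against 0.217 in IgG ChIP.

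Across the 19 chromosomes the end to interior ratio of H2A.B ChIP had a Spearman rho of 0.751 with that of IgG ChIP. 5mC replicate 2 had a rho of 0.974 with IgG MeDIP, its lane mate, and 0.963 with 5mC replicate 1 from another flow cell. These are descriptions: the points share the same 19 sequences, with their base composition and the number of positions to which a read can be placed. The ratio of H2A.B over IgG ChIP, ends against interior, had a rho of 0.640 with that of 5mC replicate 1 over 5mC replicate 3, which came from the same lanes. It had a rho of -0.533 with that of 5mC replicate 2 over IgG MeDIP, which shared a lane.

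**Figure D2:**
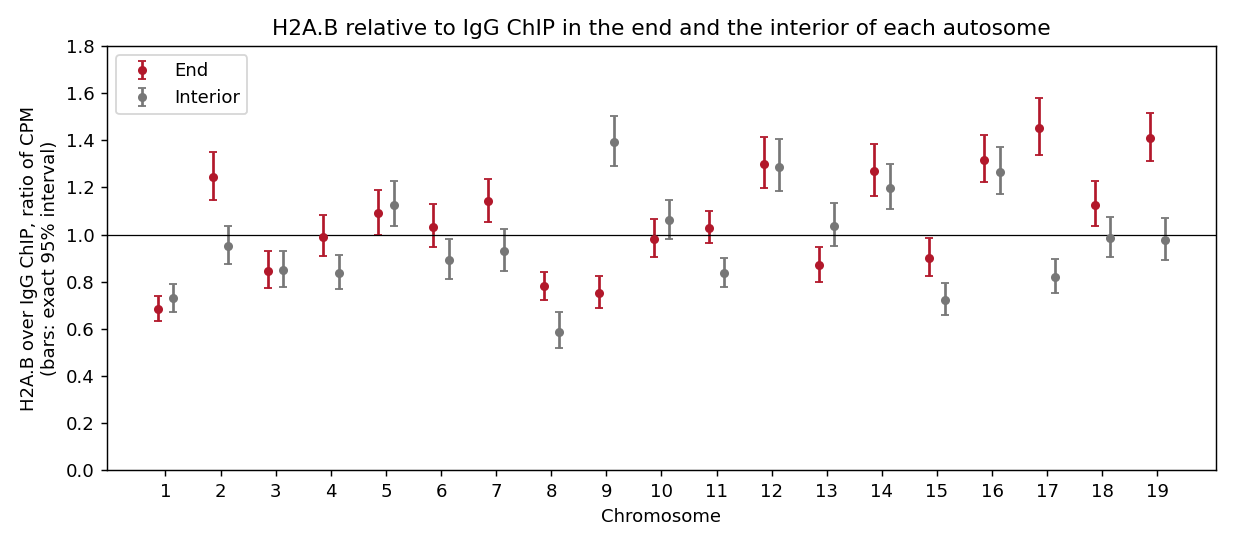
H2A.B over IgG ChIP as a ratio of CPM in the end (left point) and interior (right point) of each autosome, with exact 95% intervals for counting error. The ends run from 0.684 on chromosome 1 to 1.45 on chromosome 17, and the end stands above the interior on 13 of 19 chromosomes.

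The ends with the highest H2A.B over IgG ChIP were those of chromosomes 17, 19 and 16. It was 1.45 (1.34 to 1.58) in the end of chromosome 17, against 0.821 (0.754 to 0.896) in its interior. The end of chromosome 19 had 1.41 (1.31 to 1.52), against 0.977 (0.893 to 1.07) in its interior. On chromosome 16 end and interior did not differ beyond their intervals, at 1.32 (1.22 to 1.42) in the end and 1.27 (1.17 to 1.37) in the interior. Within their own chromosomes these ends were high: the end of chromosome 16 ranked first of 32 segments of 3 Mb, that of chromosome 19 ranked 2 of 20, and that of chromosome 17 ranked 4 of 31.

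The ratio was lowest in the ends of chromosomes 1, 9 and 8, where H2A.B reads were fewer than IgG reads at equal depth. It was 0.684 (0.632 to 0.741) in the end of chromosome 1 and 0.729 (0.673 to 0.791) in its interior. The end of chromosome 9 had 0.754 (0.690 to 0.824), against 1.39 (lower bound 1.29) in its interior, and ranked last of 41 segments of that chromosome. The end of chromosome 8 had 0.780 (0.724 to 0.842), against 0.587 (0.517 to 0.669) in the 92 interior windows left there.

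**Figure D3:**
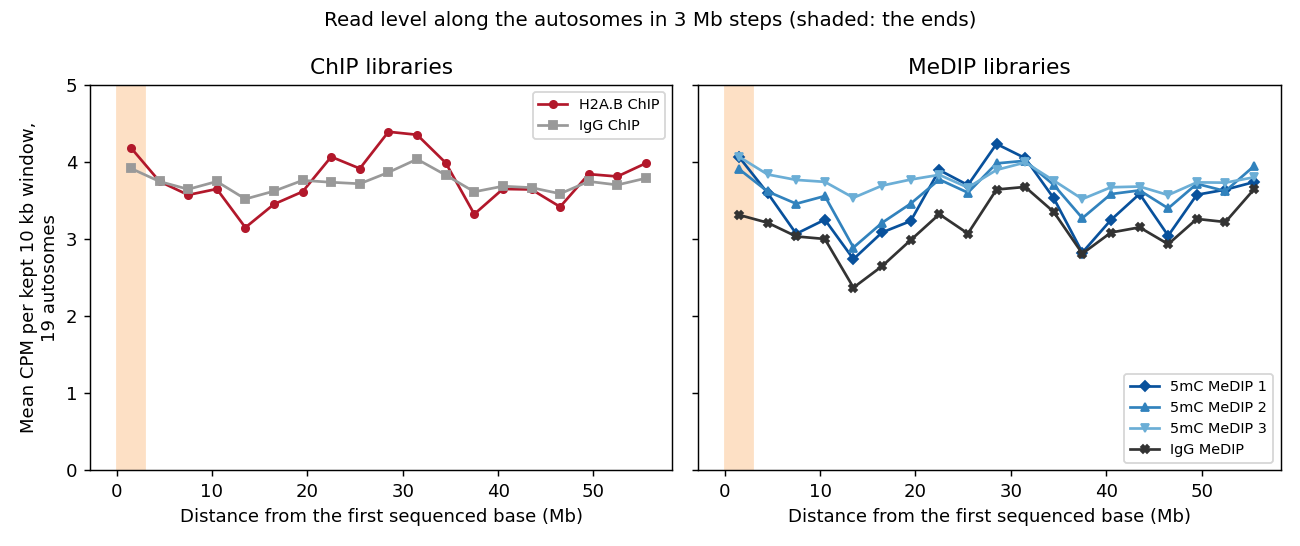
Mean CPM per kept 10 kb window over the 19 autosomes in steps of 3 Mb from the first sequenced base, for the ChIP libraries (left) and the MeDIP libraries (right), with the ends shaded. The first step is high in several libraries but is matched by the steps near 30 Mb, and all libraries dip together shortly before 15 Mb.

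With distance from the centromere, the ends were among the higher segments without standing apart. Over 19 successive segments of 3 Mb, the ends ranked 3 in H2A.B ChIP and 2 in IgG ChIP. They ranked 2, 4 and 1 in the 5mC replicates and 6 in IgG MeDIP. H2A.B ChIP had 4.18 CPM in the ends and between 3.15 CPM and 4.39 CPM in the other 18 segments, the highest being the one from 30 to 33 Mb of the assembly. The median of the other segments was 3.70 CPM.

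The ratio of H2A.B over IgG ChIP ranked 4 of 19, at 1.07 in the ends against 0.895 to 1.14 in the other segments. 5mC over IgG MeDIP averaged 1.21 ± 0.0277 (SD, n = 3) in the ends, rank 3 of 19, against 1.05 to 1.29 in the other segments. Over the 19 segments the Spearman rho of H2A.B over IgG ChIP with distance was 0.08 and that of 5mC over IgG MeDIP was -0.59, as descriptions of segments that share libraries. The highest 5mC over IgG MeDIP lay not in the ends but from 15 to 18 Mb, where the plot of read level along the autosomes shows all libraries low.

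**Figure D4:**
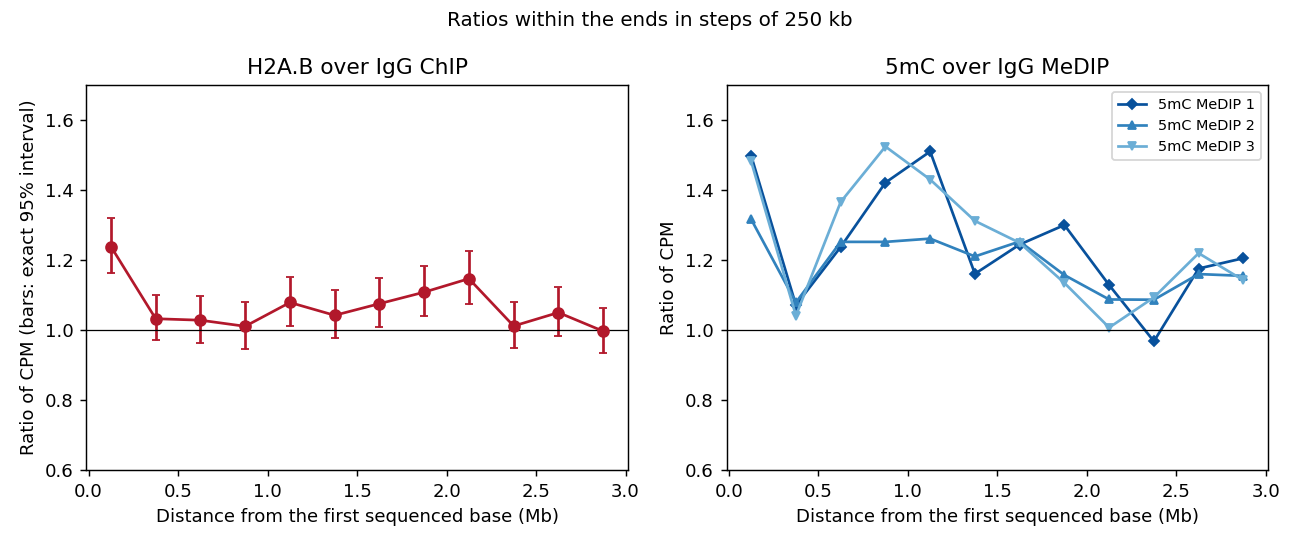
Ratios of CPM within the ends in steps of 250 kb, for H2A.B over IgG ChIP with exact 95% intervals (left) and for each 5mC replicate over IgG MeDIP (right). H2A.B over IgG is highest in the first step, at 1.24, and lies between 0.997 and 1.15 in the others.

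Within the ends, H2A.B over IgG ChIP was highest in the first 250 kb, the windows nearest the satellite blocks. It was 1.24 (1.16 to 1.32) there, against 1.05 (1.03 to 1.07) in the rest of the ends, and lowest in the last 250 kb, at 0.997 (0.936 to 1.06). H2A.B ChIP averaged 5.13 CPM in the first 250 kb, which was 1.25-fold the rest of the ends, while IgG ChIP was 1.06-fold the rest. The first 250 kb were above the rest of the end on 11 of 19 chromosomes in H2A.B ChIP and on 12 in IgG ChIP.

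Chromosome 17 led, with 2.97-fold more H2A.B reads per window in the first 250 kb than in the rest of its end, against 1.86-fold in IgG ChIP. Chromosome 3 followed with 2.55-fold in H2A.B ChIP and 1.27-fold in IgG ChIP, and chromosome 16 with 2.15-fold and 1.28-fold. Each chromosome was also left out in turn, an alternative added after seeing the data. H2A.B over IgG ChIP in the first 250 kb then ran from 1.15 (1.08 to 1.24) without chromosome 17 to 1.28 (1.20 to 1.37) without chromosome 1. With chromosomes 3, 4, 16 and 17 left out together, a set also chosen after seeing the data, it was 1.03 (0.954 to 1.11). This set had the largest H2A.B folds in the first 250 kb, so its choice favoured a lower value. The 1.05 in the rest of the ends keeps all 19 chromosomes and is no like comparison. H2A.B ChIP was higher in the first 250 kb than in the rest of the end on 11 of 19 chromosomes, so not on every chromosome.

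5mC in the first 250 kb was 1.10, 1.00 and 1.09-fold the rest of the ends in the 3 replicates, against 0.890-fold in IgG MeDIP. 5mC over IgG MeDIP was at least 1.32 there in each replicate, with a mean of 1.43 ± 0.100 (SD, n = 3), on 166 IgG MeDIP reads in all. The next step, from 250 to 500 kb, had 1.06 ± 0.0199 (SD, n = 3) on 235 IgG MeDIP reads. The steps from 750 to 1000 kb and from 1000 to 1250 kb had 1.40 ± 0.137 and 1.40 ± 0.127 (SD, n = 3). The remaining steps ran from 1.05 to 1.29. A high 5mC over IgG MeDIP was thus not particular to the first 250 kb. The 3 replicates share 1 IgG library as their denominator, and the plot of ratios within the ends shows them apart in several later steps.

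H2A.B was next examined in windows of 100 kb, called enriched where H2A.B over IgG ChIP was at least 1.5 with an exact lower bound above 1, and depleted by the mirrored rule. The ends held 66 enriched windows of 569 (11.6%), against 9.55% of all windows of chromosomes 1 to 19, X and Y and 9.24% of autosomal windows. They held 42 depleted windows (7.38%), against 9.76% of all windows and 10.3% of autosomal windows. The interior held 41 enriched windows of 549 (7.47%) and 53 depleted windows (9.65%). The share of enriched windows in the ends was thus near the background, and its balance over depleted windows was uneven between chromosomes.

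Chromosomes 16, 17 and 19 together held 32 enriched and 1 depleted of 90 windows in their ends. Chromosomes 1, 8 and 9 together held 3 enriched and 28 depleted of 90. The other 13 autosomes held 31 enriched and 13 depleted of 389. These sets were drawn by their values and only describe where the windows lie.

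The window with the highest lower bound was chr17:3000001-3100000, the first 100 kb of chromosome 17, with 2218 H2A.B reads and 59 IgG ChIP reads, a ratio of 2.52 (1.94 to 3.32). It also held 188, 102 and 81 reads in the 5mC replicates, against 5 in IgG MeDIP. Next came chr16:3200001-3300000, with 1244 H2A.B reads and 34 IgG ChIP reads, a ratio of 2.45 (1.74 to 3.55). The first 100 kb of chromosome 3, chr3:3000001-3100000, held 820 H2A.B reads and 25 IgG ChIP reads, a ratio of 2.20 (1.48 to 3.41).

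Of the 5 windows ranked highest, 3 therefore lay within the first 300 kb of their chromosomes. The other 2 lay farther in. Window chr18:4900001-5000000 had a ratio of 3.62 (1.74 to 9.08) on 379 H2A.B reads and 7 IgG ChIP reads. Window chr12:3800001-3900000 had 2.25 (1.41 to 3.82) on 604 H2A.B reads and 18 IgG ChIP reads. A ranking by the lower bound favours windows with many reads, so the places of these 5 windows are a description. Among the 18 chromosomes whose first 100 kb could be scored, the first window was enriched on 4 (chromosomes 3, 4, 9 and 17) and depleted on 1 (chromosome 1). On chromosome 9 the first 100 kb, with 6 usable windows of 10 kb, had a ratio of 2.36 (1.34 to 4.60) although the end as a whole was the lowest segment of its chromosome.

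The 5 windows with the lowest upper bound were chr1:4100001-4200000 with a ratio of 0.413 (0.287 to 0.613), chr8:5700001-5800000 with 0.416 (0.269 to 0.669), chr8:5200001-5300000 with 0.436 (0.285 to 0.694), chr8:3800001-3900000 with 0.469 (0.323 to 0.702) and chr9:3900001-4000000 with 0.466 (0.319 to 0.703). They held between 149 and 224 H2A.B reads, where the median window of the ends held 301, and between 24 and 34 IgG ChIP reads, where the median was 20. The rule that named these windows favours few H2A.B reads and many IgG reads, so these counts are a description.

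The MeDIP libraries differed between the enriched and depleted windows of the ends in the same direction as H2A.B. Enriched windows held 1.69, 1.28 and 1.19-fold the 5mC reads of windows called neither way, a mean of 1.39 ± 0.268 (SD, n = 3), against 1.26-fold in IgG MeDIP. Depleted windows held 0.736, 0.783 and 0.962-fold, a mean of 0.827 ± 0.119 (SD, n = 3), against 0.655-fold in IgG MeDIP. In enriched windows IgG MeDIP was below replicates 1 and 2 and within 1 SD of the 5mC mean, and in depleted windows it was lower than all 3 replicates. Enriched windows of the interior held 1.55 ± 0.441-fold (SD, n = 3) for 5mC, against 1.48 for IgG MeDIP, and depleted windows 0.835 ± 0.111 (SD, n = 3), against 0.723. The place of IgG MeDIP among the replicates differed there. It lay above replicates 2 and 3 in enriched windows (1.39 and 1.21) and above replicate 2 in depleted windows (0.711).

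5mC over IgG MeDIP was tested in windows of 1 Mb with limma, after the 5mC libraries were thinned to the depth of IgG MeDIP, with Benjamini-Hochberg adjustment over all 2566 windows. Of the 57 windows of the ends, 0 were higher and 0 were lower at an adjusted p under 0.05, against 0.039% of all windows higher and 0.0% lower; the smallest adjusted p in the ends was 0.392. At an unadjusted p under 0.05, 6 end windows were higher and 0 lower, where 5.73% of all windows were higher and 0.117% lower, and 7.27% of interior windows were higher. All 3 5mC libraries lay above IgG MeDIP in 31 of 57 end windows (54.4%), against 39.2% of all windows and 24 of 55 interior windows (43.6%). All 3 lay below it in 4 end windows (7.02%), against 8.77% of all windows and 3.64% of interior windows.

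The largest statistics in the ends belonged to chr7:5000001-6000000, with a log2 difference of 1.31 (SE 0.446, limma adjusted p = 0.392), and to chr14:3000001-4000000, with 1.29 (SE 0.467, limma adjusted p = 0.468). The third was chr3:5000001-6000000, with a log2 difference of 1.40 (SE 0.516, limma adjusted p = 0.512). None of these passed the threshold. The lowest were chr18:5000001-6000000, chr17:5000001-6000000 and chr2:5000001-6000000, with log2 differences of -0.40, -0.49 and -0.40 and a limma adjusted p of 0.957 in each.

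Reads piled up in 18 end windows that lay above the upper limit of 10 times the autosomal median and were left out of the results above. They were 0.316% of the end windows, against 0.0702% of the interior windows and 0.102% of all autosomal windows, and 12 of the 18 lay in the first 250 kb. Of the 18 windows, 9 lay in the first 100 kb of chromosome 11, chr11:3000001-3100000, where only the window from 3010001 to 3020000 stayed under the limit. That made chromosome 11 the one end with an extended block of reads.

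In those 9 windows of chromosome 11 H2A.B ChIP stood at 28.3-fold and IgG ChIP at 20.9-fold the mean of the same library over the autosomes. 5mC stood at 39.6, 17.7 and 21.6-fold in the 3 replicates, a mean of 26.3 ± 11.7 (SD, n = 3), against 18.3-fold in IgG MeDIP. All 6 libraries were thus high, controls included. H2A.B over IgG ChIP in the block was 1.39 (1.25 to 1.54), on 8135 H2A.B reads and 393 IgG ChIP reads. 5mC over IgG MeDIP was 2.38, 1.08 and 1.31, a mean of 1.59 ± 0.695 (SD, n = 3), on 72 IgG MeDIP reads.

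**Figure D5:**
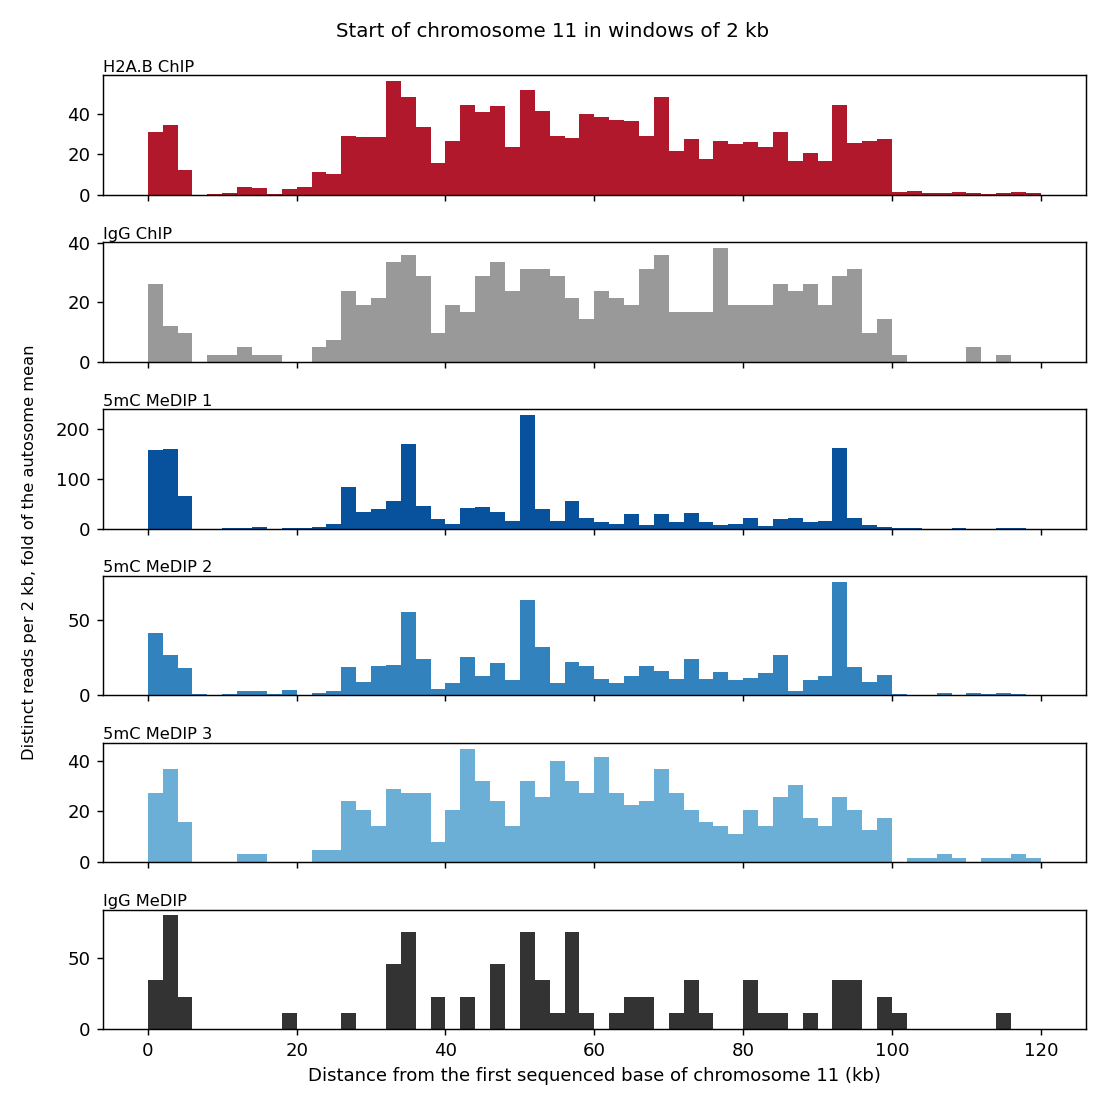
Distinct reads in windows of 2 kb along the first 120 kb of chromosome 11, as a fold of the autosomal mean of each library, with 1 panel per library and its own axis. On average all 6 libraries are high from 26 to 100 kb and fall to between 0.601 and 2.29-fold from 100 to 120 kb. IgG MeDIP holds few reads, and some of its windows between 26 and 100 kb have none. 5mC replicates 1 and 2 have narrow peaks at 34, 50 and 92 kb.

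At a finer scale the block of chromosome 11 began with a short rise in its first 6 kb and continued from 26 kb to a sharp edge at 100 kb. H2A.B ChIP averaged 31.7-fold the autosomal mean from 26 to 100 kb and 1.11-fold from 100 to 120 kb. IgG ChIP averaged 23.7-fold and 0.956-fold over the same stretches. The edge thus fell at the same place with the H2A.B antibody and with IgG.

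Inside the block the ChIP libraries varied less from window to window than 5mC replicates 1 and 2, which were peaked. H2A.B ChIP still ran from 15.8 to 56.0-fold, with a Spearman rho of 0.592 with 5mC replicate 1. Over the 37 windows of 2 kb from 26 to 100 kb the coefficient of variation was 0.327 in H2A.B ChIP and 0.311 in IgG ChIP. It was 1.30, 0.811 and 0.361 in the 5mC replicates, against 1.11 in IgG MeDIP, which held few reads per window. These coefficients include counting error, which is larger in the libraries with fewer reads, such as IgG ChIP beside H2A.B ChIP.

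The 5 highest windows of 5mC replicate 1 began at 50, 34, 92, 2 and 0 kb; they were named after their values were seen. The window at 50 kb, chr11:3050001-3052000, reached 228-fold in 5mC replicate 1, 63.5-fold in replicate 2 and 31.9-fold in replicate 3, against 68.7-fold in IgG MeDIP on 6 reads. In ChIP it had 51.4-fold in H2A.B and 31.1-fold in IgG. The windows at 34 and 92 kb reached 169 and 160-fold in 5mC replicate 1 and 55.5 and 75.5-fold in replicate 2, but 27.2 and 25.6-fold in replicate 3, close to the mean of replicate 3 over the block, 23.9-fold. At 34 and 92 kb IgG MeDIP stood at 68.7-fold on 6 reads and 34.4-fold on 3 reads, against 18.6-fold over the block, and H2A.B ChIP stood at 48.3 and 44.4-fold, against 31.7-fold over the block. IgG ChIP stood at 31.1, 35.8 and 28.7-fold at 50, 34 and 92 kb, on 13, 15 and 12 reads, against 23.7-fold over the block. The 3 windows were thus high in 5mC replicates 1 and 2, in the few reads of IgG MeDIP and, less steeply, in both ChIP libraries.

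The window with the highest H2A.B over IgG ChIP among the 18 was chr4:3010001-3020000, with 889 H2A.B reads and 19 IgG ChIP reads, a ratio of 3.13 (1.99 to 5.23). It stood at 60.9-fold the autosomal mean in 5mC replicate 1, and at 7.35 and 9.26-fold in replicates 2 and 3, against 6.87-fold in IgG MeDIP on 3 reads. H2A.B ChIP stood at 27.9-fold and IgG ChIP at 9.08-fold, so all 6 libraries were raised here. H2A.B ChIP and 5mC replicate 1, the highest of them, shared a lane and a read length of 42 bp. The part of the lane or of the read length was not tested.

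Outside the first 100 kb of chromosome 11, the 9 other windows above the limit gave H2A.B over IgG ChIP of 0.848 (0.729 to 0.992), and several were highest in IgG MeDIP. The limit was set on the mean CPM of the 6 libraries, IgG MeDIP included, where 3 reads make 24.2 CPM. A window could thus pass it largely through its IgG MeDIP reads, so these values only describe the windows. Windows chr6:4870001-4880000 and chr16:5700001-5710000 stood at 52.7 and 55.0-fold in IgG MeDIP, where the highest 5mC replicate had 18.1 and 14.6-fold. In chr5:5290001-5300000 5mC replicate 2 had 2863 reads at 32 positions, so that the reads were stacked at few positions. These last windows of chromosomes 16 and 5, and the next of chromosome 17, were named after their values were seen.

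Window chr17:4620001-4630000 separated the libraries in another way. It held 5, 217 and 50 distinct reads in 5mC replicates 1, 2 and 3, against 0 in IgG MeDIP, where a count of 0 allows up to 3 reads. H2A.B ChIP had 71 reads and IgG ChIP had 33, a ratio of 0.144 (0.0940 to 0.225). The window was thus high in 5mC replicates 2 and 3 and in IgG ChIP. It was near the autosomal mean in 5mC replicate 1, at 0.922-fold, and without reads in IgG MeDIP, which shared the lane of 5mC replicate 2.

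Over all 18 windows H2A.B over IgG ChIP was 1.22 (1.12 to 1.32), against 0.484 (0.474 to 0.495) over the 247 autosomal windows above the same limit, which include these 18. 5mC over IgG MeDIP was 1.30, 0.717 and 0.760 in the 18 windows, against 0.388, 0.307 and 0.307 in the 247. IgG MeDIP itself stood at 22.5-fold the autosomal mean in the 18 windows and at 57.9-fold in the 247. Both sets were chosen by a limit that counts the IgG libraries. These ratios to IgG therefore describe the sets and cannot show a trait of the ends. Of the 10441 H2A.B reads in the 18 windows, 8135 came from the block of chromosome 11.

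No genome or annotation of mm9 was used here, so the windows were not placed against genes or repeats. In gene order alone, the protein-coding genes nearest the start of chromosome 19, the end with the highest mean H2A.B CPM over its kept windows, are Ighmbp2, a helicase, Mrpl21, a protein of the mitochondrial ribosome, Cpt1a, which brings long-chain fatty acids into mitochondrial oxidation, and Tesmin, in the RefSeq gene table of the GRCm38 assembly. Those nearest the start of chromosome 9, the end with the lowest ratio, are Alkbh8, which modifies the wobble base of tRNAs, Cwf19l2, Gucy1a2, a subunit of soluble guanylate cyclase, and Aasdhppt, which attaches the phosphopantetheine group to carrier proteins. The 2 chromosomes were chosen for these names after their values were seen, and whether each gene lies inside the windows was not examined.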

How the data were processed

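The deposited files have no header and list each aligned read with its chromosome, start, end, name, strand and a deposited score that is the same for every read and was not used. Per the submitters' processing notes, Bowtie and FastQC were used with mm9; their versions and settings are not given in the labels. Reads were 42 bp in H2A.B ChIP and 5mC replicate 1 and 50 bp in the other libraries. The list of 5mC replicate 2 held 4382222 reads in 4 blocks; 201263 reads identical to the IgG MeDIP list and 2979 without a strand were removed. The other lists held 9266471 reads (H2A.B ChIP), 811727 (IgG ChIP), 3503839 (5mC replicate 1), 1574706 (5mC replicate 3) and 201263 (IgG MeDIP), of which 39.9% to 86.9% were distinct on chromosomes 1 to 19, X and Y; 9 malformed lines were skipped.

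Distinct reads (one per 5′ position and strand) were counted in 10 kb windows and divided by the library's total over chromosomes 1 to 19, X and Y. The kept range was 0.785 to 31.4 CPM. H2A.B over IgG ChIP was taken in 100 kb windows with at least 5 kept windows, with exact conditional 95% intervals. 5mC over IgG MeDIP was tested in 1 Mb windows with at least 50 kept windows by limma 3.58.1 with an intensity trend (R 4.3.3) on log2 CPM with 0.5 reads added, with 5mC thinned to the IgG depth; the spread came from the 5mC libraries, and IgG MeDIP, with 1 library, is taken to have the same spread. The limma script was run on simulated data that held counting error only, without the spread seen between the 5mC libraries. That run does not show how large a difference could be found in the real libraries. Tables used Python 3.11.15 with pandas 2.3.3, numpy 2.4.6 and scipy 1.17.1, and figures matplotlib 3.10.9.

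Named windows were the 5 highest lower and 5 lowest upper bounds of H2A.B over IgG ChIP, the 3 highest and 3 lowest limma statistics, and up to 10 windows above the upper limit by mean CPM; named chromosomes were the 3 highest and 3 lowest ratios per group. The windows, rules and alternatives were chosen with earlier results of these data known. The alternatives are given in the closing section. No gene or sequence of mm9 was used.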

Additional observations from a re-analysis of the deposited data

Results flagged for a closer look

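Windows above the upper limit were outside the comparisons of ends and interior, and 3 stretches of them held more H2A.B reads than IgG ChIP reads at equal depth, with an exact lower bound above 1. Window chr4:3010001-3020000 had a ratio of 3.13 (1.99 to 5.23). On chromosome 11 the first window, chr11:3000001-3010000, had 1.58 (1.02 to 2.58), and chr11:3020001-3100000 had 1.37 (1.24 to 1.53) on 7639 H2A.B reads and 372 IgG ChIP reads. The intervals cover counting error only, there is 1 library a side, and H2A.B ChIP and IgG ChIP came from different flow cells.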

How the results depend on the processing

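The mean 5mC end to interior ratio (1.13) was 1.23 with no filter on windows, 1.23 against an interior of 40 to 43 Mb and 0.882 against the last 3 Mb of each autosome, and 1.09 to 1.16 when each 5mC replicate was left out. Relative to IgG MeDIP (0.06 on the log2 scale) it was 0.01 to 0.10 without each replicate and turned to -0.10 as a median over the 19 chromosomes, an alternative chosen after seeing the data; the cause was not tested. H2A.B over IgG ChIP, ends against interior (1.08), was 1.13 against 40 to 43 Mb and 1.02 (0.995 to 1.05) against the last 3 Mb. Alternatives chosen after seeing the data gave 1.12 without chromosome 9, 1.07 without chromosome 11, 1.05 without chromosome 19 and 1.14 as a median over chromosomes. Against the last 3 Mb, the ends were higher on 9, 5 and 7 chromosomes in the 5mC replicates, 5 in IgG MeDIP, 8 in H2A.B ChIP and 7 in IgG ChIP. Enriched 100 kb windows (66) numbered 109 with all reads, 29 at a ratio of 2 and 34 with H2A.B thinned to the IgG depth, where 16.1%, 3.26% and 6.48% of all windows were called; depleted windows (42) numbered 15 at a ratio of 2 and 21 when thinned, where 3.32% and 5.31% were called. The count of 1 Mb end windows past the adjusted threshold was 0 in each direction under all 10 alternatives. No paired analysis was possible because only the 5mC group has more than 1 library. Depth limits single windows: 3 IgG MeDIP reads correspond to 24.2 CPM.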
